A study of Homo sapiens with 15 samples.

Results

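MYC and 36 factors that build ribosomes were followed in LNCaP cells, 37 genes in all of the 17272 in the expression table. They were chosen by name, as the transcription factor MYC together with the RNA polymerase I, nucleolar, small nucleolar ribonucleoprotein (snoRNP) and subunit assembly factors, with earlier results of these data known. All 37 had a row and all passed the filter on low values, as did 17046 genes overall. LNCaP is a line of human prostate cancer cells that respond to androgen and whose androgen receptor carries a mutation in the ligand-binding domain. After 2 days in medium with charcoal-stripped serum, 10 libraries came from cells given 1 nM of the synthetic androgen R1881 with the vehicle DMSO, and 5 came from cells given 1 nM R1881 and 2 µM of the androgen receptor inhibitor enzalutamide, all collected at 22 h. Every library therefore comes from androgen-treated cells of a single line, and no group without R1881 was analysed here. The question addressed by the comparison is how blocking the receptor in the presence of androgen alters gene expression.

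Ribosomes are made in the nucleolus. RNA polymerase I transcribes the precursor of the large ribosomal RNAs, box C/D and box H/ACA snoRNPs modify it, and a succession of assembly factors cuts it, folds it and loads ribosomal proteins on it to form the small and the large subunit. MYC, paired with its partner MAX, binds the E-box sequence CACGTG and is known as an activator of many of these genes, and prominent nucleoli are a long-known feature of prostate cancer cells.

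The libraries held between 15830745 and 25416052 counted reads, and values are the CPM as deposited, counts scaled by a rule that the sources used here do not state. Androgen-induced genes served as the check of the treatment, and all 12 fell, with a median log2 fold change of -2.88. STEAP4, a metalloreductase, stood at 66.2 ± 4.29 CPM (SD, n = 10) under R1881 and at 0.135 ± 0.0494 CPM (SD, n = 5) after enzalutamide. FKBP5, a co-chaperone of steroid receptors, was at 1502 ± 87.4 and 46.8 ± 3.11 CPM. All 8 luminal prostate markers had a row, and their summed level was 6401 to 7676 CPM with R1881 and 2175 to 2284 CPM with enzalutamide. Among 11 markers of other cell types 4 had a row, summing to 12.2 to 17.2 CPM with R1881 and 26.5 to 32.5 CPM with enzalutamide, and PTPRC, CD68, CD3E, PECAM1, KRT5, TP63 and DCN had none. COL3A1, a fibrillar collagen, made up most of the rise, from 1.84 ± 0.480 to 11.96 ± 0.979 CPM. All 18 proliferation markers fell as well, with a median of -0.91 and a summed level of 1668 to 2021 CPM against 919 to 1025 CPM, led by RRM2 at -1.69 and MKI67 at -1.25. The part of this fall in the values below was not tested. In bulk RNA, fewer cells of a kind and less RNA per cell cannot be told apart.

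Most of the ribosome biogenesis factors fell modestly with enzalutamide, while MYC itself rose. Of the 37 genes, 23 (62.2%) were lower at an adjusted p under 0.05 in the limma fit over all genes, where 32.7% of all genes tested were lower. Only MYC and NOP10 were higher, where 29.8% of all genes were, and 12 did not pass the test. The median log2 fold change of the 37 genes was -0.30, beside -0.01 over all genes, and 31 of the 37 estimates were negative. The falls were small. TCOF1 and NOP16 were lower by at least 1.5-fold, a size reached by 9.55% of all genes, and none was higher by that much, against 9.06% of all genes. This count of 2 became 1 without R1881 replicate 6 or enzalutamide replicate 1, 4 without enzalutamide replicate 2, 1 against the R1881 libraries that the labels number 51 to 55 and 5 against those numbered 71 to 75. NOP2, at -0.57 on the log2 scale, lay just outside that limit of 0.58. In 14 genes (37.8%) every enzalutamide library lay below every R1881 library, against 20.1% of all genes, and in MYC and NOP10 every enzalutamide library lay above, against 17.1%. Summed over the 36 factors without MYC, the level was 4937 ± 56.8 CPM (SD, n = 10) with R1881 and 4231 ± 72.8 CPM (SD, n = 5) with enzalutamide. The deposited values sum to more per library with R1881 than with enzalutamide. With all library totals set to 1000000, 20 of the 37 genes were lower and 5 higher, with a median of -0.21, and over all genes the split moved from 5577 lower and 5083 higher to 4288 lower and 6629 higher.

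**Figure D1:**
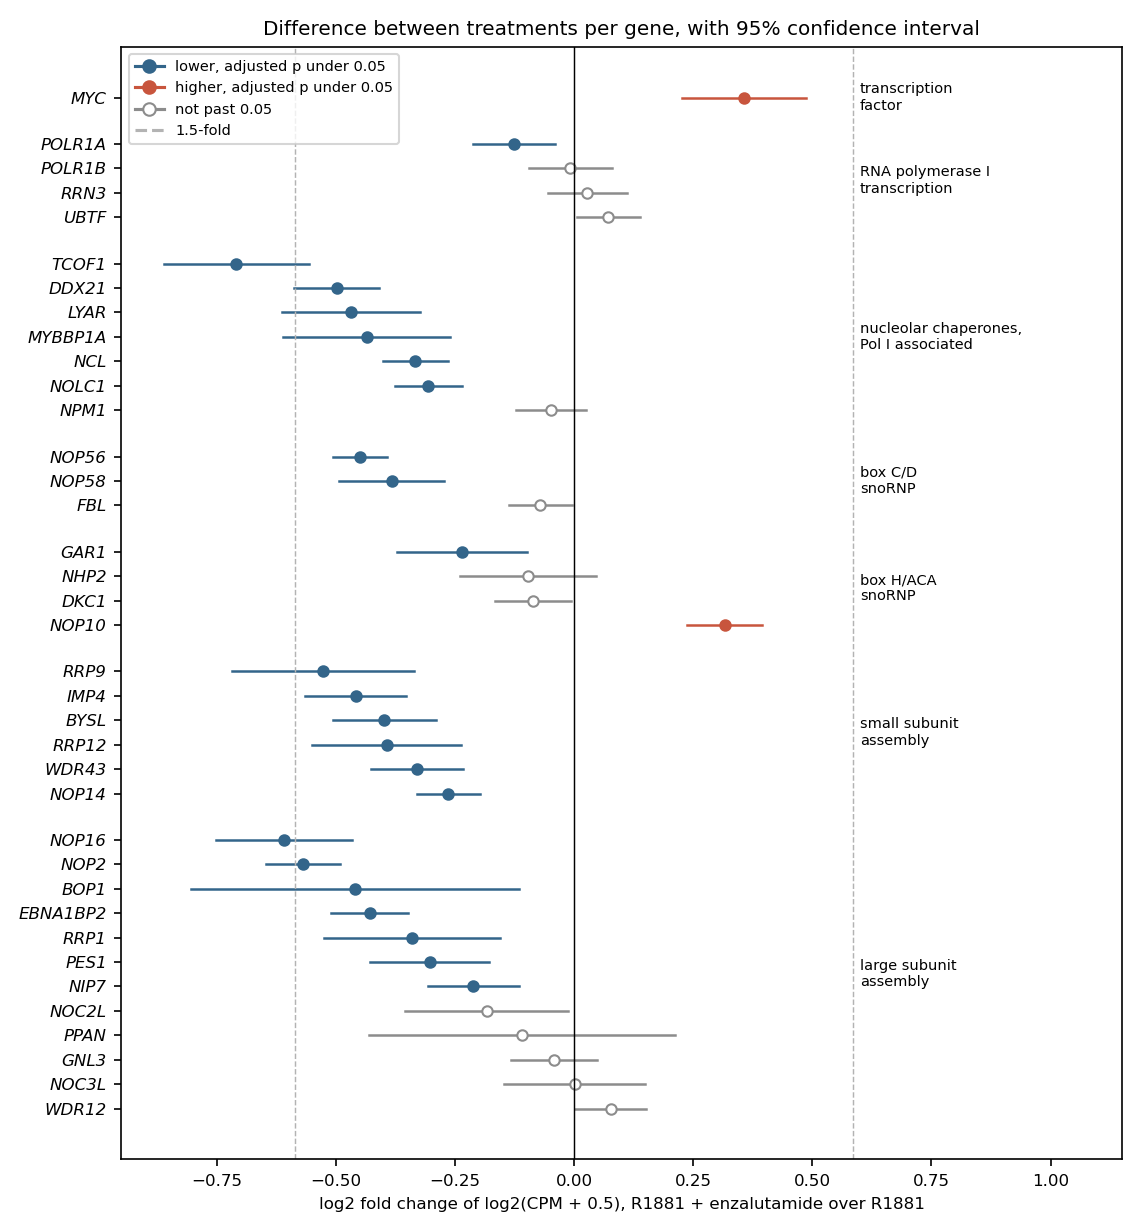
Log2 fold change (R1881 + enzalutamide over R1881, on log2(CPM + 0.5)) of each of the 37 genes, grouped by role, with its 95% confidence interval from limma. Filled points passed an adjusted p of 0.05 and dashed lines mark 1.5-fold; 23 filled points lie left of 0, and MYC and NOP10 lie right of it.

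MYC was higher with enzalutamide. With R1881 its lowest value was 94.6 CPM, its median 103 CPM and its highest 127 CPM. With enzalutamide the 5 libraries gave 130.5, 152, 132, 131 and 134 CPM, so every library lay above the highest R1881 library, the nearest by a small margin. The mean of 107 ± 11.0 CPM (SD, n = 10) became 136 ± 8.88 CPM (SD, n = 5), a rise of 27.8% and a log2 fold change of 0.36 (SE 0.062, adjusted p = 4.53e-05, limma). The two-sided exact permutation test of MYC across libraries gave p = 0.000333, the lowest value that 10 against 5 libraries can reach. Only a gene without overlap can reach it, so it adds little to the lack of overlap described above. The test treats the 10 R1881 libraries as exchangeable. The R1881 libraries are numbered 51 to 55 and 71 to 75 in the labels, numbers whose meaning is not given, but MYC differed between these series without overlap, at 94.6 to 103 CPM in the former and 104 to 127 CPM in the latter. Its log2 fold change was 0.47 against libraries 51 to 55 and 0.25 against libraries 71 to 75. MYC RNA was higher against either series, and MYC protein was not measured here.

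**Figure D2:**
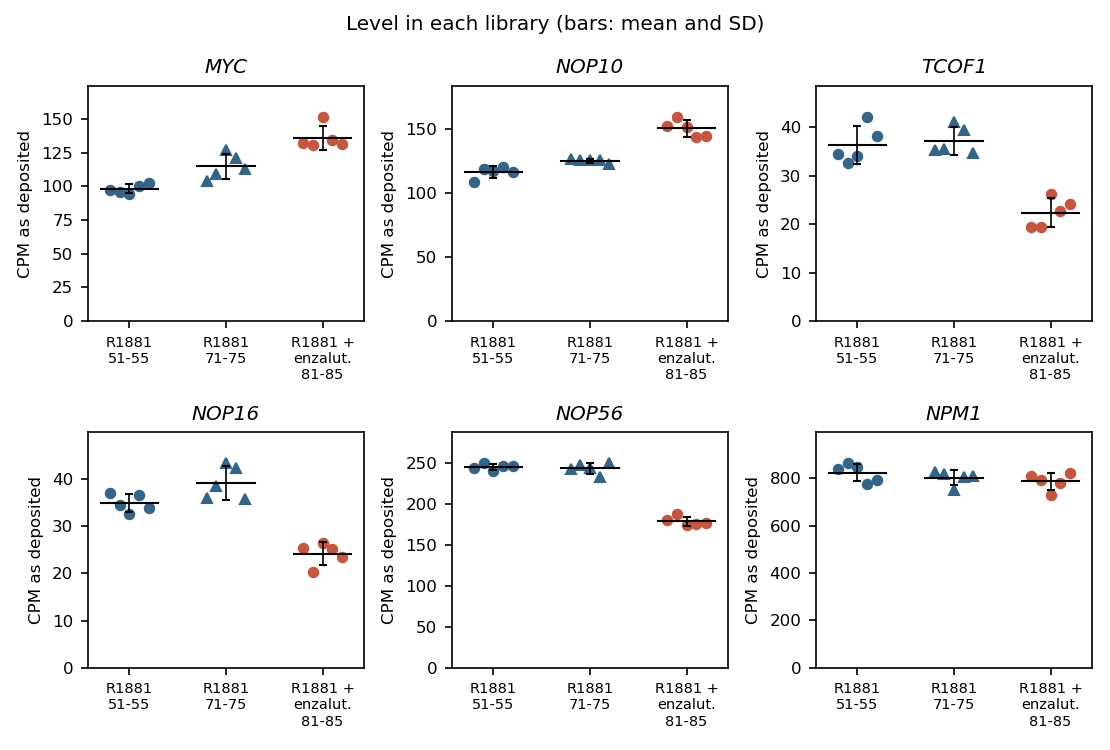
CPM of MYC, NOP10, TCOF1, NOP16, NOP56 and NPM1 in each library (1 point each), with the mean (wide bar) and SD (error bar) of R1881 libraries 51 to 55, R1881 libraries 71 to 75 and R1881 + enzalutamide libraries 81 to 85. MYC and NOP10 are higher in all 5 enzalutamide libraries than in any R1881 library, TCOF1, NOP16 and NOP56 are lower in all 5, and NPM1 overlaps.

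Of the 4 RNA polymerase I transcription factors and subunits among the 37 genes, 1 was lower and 3 did not pass the test. This share of 25% lower lies near the 32.7% of all genes, so the count does not set these 4 genes apart. POLR1A, the largest subunit of the enzyme, was lower at -0.13 (adjusted p = 0.0116, limma), a call lost with equal library totals, with edgeR and against libraries 51 to 55 alone. POLR1B, the second-largest subunit, gave -0.01 with a 95% interval of -0.09 to 0.08, and RRN3, which brings the enzyme to the promoter, gave 0.03 with an interval of -0.06 to 0.11. UBTF, which binds ribosomal DNA and marks active genes, stood at 105 ± 3.50 CPM with R1881 and 110.1 ± 2.45 CPM with enzalutamide (0.07, adjusted p = 0.0561, limma). For none of the last 3 did the interval reach a 1.5-fold change in either direction. With equal library totals UBTF and RRN3 passed the test as higher.

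Nucleolar chaperones and factors associated with RNA polymerase I were lower in 6 of 7 cases, where 32.7% of all genes were, with a median of -0.44. TCOF1 encodes treacle, a scaffold that couples ribosomal RNA transcription to its processing and that is mutated in Treacher Collins syndrome. The gene lies at chr5:150357629-150400308 on the plus strand of GRCh38 and has 27 exons in its canonical transcript. With R1881 its lowest value was 32.7 CPM, its median 35.3 CPM and its highest 42.1 CPM, and with enzalutamide it gave 19.4, 26.2, 19.3, 24.2 and 22.6 CPM. The groups did not overlap, and the mean fell by 39.1%, a log2 fold change of -0.71 (SE 0.073, adjusted p = 3.29e-08, limma).

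DDX21, an RNA helicase that acts on ribosomal RNA and on RNA polymerase I and II transcription, ranged from 375 to 447 CPM with R1881, with a median of 415 CPM. It gave 301, 275, 281, 316 and 296 CPM with enzalutamide, all below the lowest R1881 library, a log2 fold change of -0.50 (adjusted p = 2.04e-09, limma). Nucleolin (NCL), an abundant nucleolar protein that binds nascent ribosomal RNA, ranged from 831 to 929.6 CPM with a median of 894 CPM under R1881. Its enzalutamide values of 744, 663, 694, 735 and 700.5 CPM were again all lower (-0.33, adjusted p = 1.51e-08, limma). LYAR, a nucleolar zinc finger protein, was lower at -0.47, NOLC1, a chaperone of snoRNPs, at -0.31 and MYBBP1A, a nucleolar protein named for its binding to MYB, at -0.44, the last with overlapping groups.

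Nucleophosmin (NPM1), a histone and ribosome chaperone, was the exception in this group. Its R1881 libraries ranged from 751 to 863 CPM with a median of 815 CPM, and its enzalutamide libraries gave 791, 729, 809.8, 821 and 781 CPM. The difference of -0.05 did not pass the test (adjusted p = 0.234, limma), and its 95% interval ran from -0.12 to 0.02, so a fall of the size of that in NCL lay outside it. The annotation holds 49 named pseudogenes of NPM1, and the sources used here do not say how reads shared with these copies were counted.

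Of the box C/D snoRNP proteins, which carry the guide RNAs for ribose methylation, the paired scaffold proteins fell and the methyltransferase did not pass the test. NOP56 ranged from 233 to 249.4 CPM with R1881, with a median of 245 CPM, and gave 187, 174, 181, 176 and 175 CPM with enzalutamide. This was the most precisely measured fall of the 37 genes, at -0.45 (SE 0.027, adjusted p = 6.68e-12, limma). Its partner NOP58 was lower at -0.38 (adjusted p = 2.44e-06, limma), also with no overlap between groups. FBL, the methyltransferase fibrillarin, had a median of 147 CPM with R1881 and gave 144, 143, 139, 134 and 136 CPM with enzalutamide, a difference of -0.07 that missed the threshold (adjusted p = 0.0593, limma).

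In the box H/ACA snoRNP, whose proteins also stabilise telomerase RNA, 1 of 4 subunits was lower, 1 was higher and 2 did not pass. These counts lie near the shares of all genes, 32.7% lower and 29.8% higher. NOP10, the smallest of the 4 subunits, rose. With R1881 it ranged from 109 to 127 CPM with a median of 122 CPM, and with enzalutamide it gave 159.98, 152, 153, 145 and 144 CPM. All 5 enzalutamide libraries exceeded all R1881 libraries, with a log2 fold change of 0.32 (SE 0.038, adjusted p = 3.44e-07, limma). GAR1 was lower at -0.23 (adjusted p = 0.00392, limma), which was lost with equal library totals. DKC1, the pseudouridine synthase dyskerin, at -0.09 (adjusted p = 0.0549) and NHP2 at -0.10 (adjusted p = 0.227) did not pass the limma test. Enzalutamide libraries gave 152, 136, 148, 144 and 139.5 CPM for DKC1, within or just below the R1881 range of 142 to 167 CPM.

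All 6 small subunit assembly factors were lower, where 32.7% of all genes were, with a median of -0.40. In 4 of them the groups did not overlap, where 20.1% of all genes were lower without overlap. RRP9, a protein of the U3 snoRNP that starts small subunit processing, had the largest change at -0.53 (adjusted p = 4.20e-05, limma). It ranged from 26.5 to 42.3 CPM with R1881 and gave 19.0, 27.2, 22.2, 20.2 and 24.6 CPM with enzalutamide, so that 1 enzalutamide library lay inside the R1881 range. IMP4, another U3 partner, ranged from 72.2 to 93.8 CPM with R1881 and gave 55.9, 61.6, 61.1, 55.5 and 57.9 CPM with enzalutamide, a change of -0.46 with no overlap. BYSL, needed late in small subunit maturation, was lower at -0.40, the export-linked factor RRP12 at -0.39, WDR43, a component of the complex that couples transcription to early processing, at -0.33, and NOP14, which takes part in the early small subunit precursor, at -0.26.

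Large subunit assembly factors were mixed, with 7 of 12 (58.3%) lower, none higher and a median of -0.26. Over all genes 32.7% were lower and 29.8% higher. Differences between the role groups were not tested. NOP16, a nucleolar protein at chr5:176383946-176388927 on the minus strand of GRCh38 with 5 exons, ranged from 32.6 to 43.4 CPM with R1881. Its enzalutamide libraries gave 20.2, 26.5, 25.4, 23.6 and 25.1 CPM, below every R1881 library, a log2 fold change of -0.61 (SE 0.068, adjusted p = 1.26e-07, limma). NOP2, an RNA methyltransferase long used as a proliferation-associated nucleolar antigen, ranged from 85.1 to 98.8 CPM with R1881 and gave 64.05, 65.3, 63.1, 60.6 and 62.5 CPM with enzalutamide. The fall of -0.57 (adjusted p = 2.41e-11, limma) was again free of overlap.

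EBNA1BP2, an early large subunit factor, was lower at -0.43 with no overlap, RRP1, a nucleolar pre-ribosomal RNA processing protein, at -0.34 and NIP7, which joins late precursors, at -0.21. PES1 and BOP1, subunits with WDR12 of the PeBoW complex needed to process the 28S precursor, differed from the third subunit in their calls. PES1 was lower at -0.30 (adjusted p = 0.000172) and BOP1 at -0.46 (adjusted p = 0.02), whereas WDR12 gave 0.08 (adjusted p = 0.0665), all from limma. BOP1 varied widely, from 19.1 to 44.4 CPM with R1881 and from 13.1 to 26.3 CPM with enzalutamide, and its call was lost without enzalutamide replicate 1 or 4, against libraries 51 to 55 alone and with equal library totals. WDR12 passed as higher with equal library totals and with edgeR. The difference between these subunits was not tested. Of the others, NOC2L gave -0.18 (adjusted p = 0.058, limma), GNL3, the nucleostemin GTPase, -0.04, and NOC3L 0.00. PPAN had few reads, at 1.27 ± 0.430 CPM with R1881 and 1.11 ± 0.210 CPM with enzalutamide. Its 95% interval of -0.43 to 0.21 was among the widest of the 37.

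**Figure D3:**
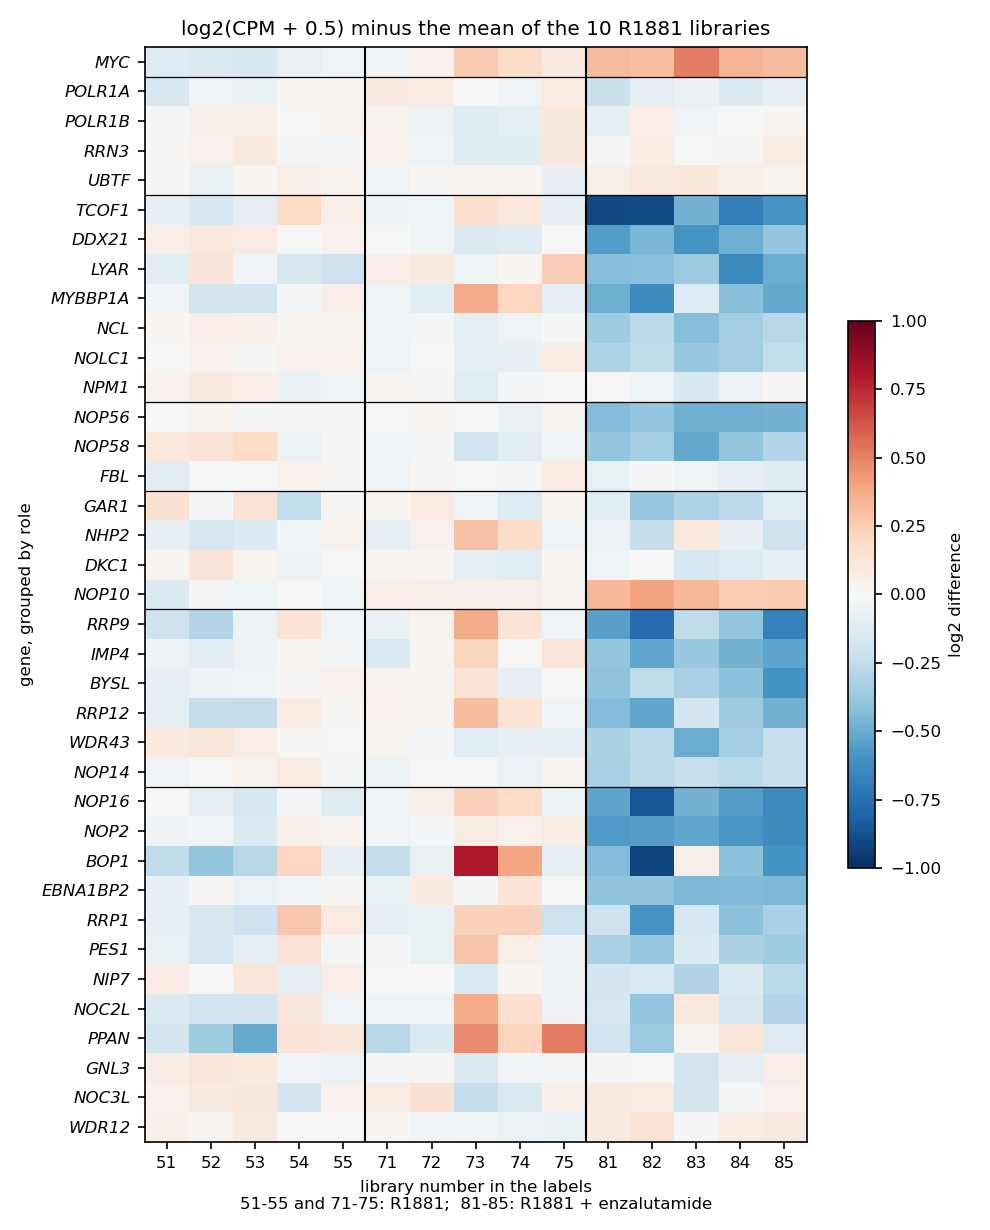
Log2(CPM + 0.5) of each of the 37 genes (rows) in each of the 15 libraries (columns, by label number), minus the gene's R1881 mean. In libraries 81 to 85, which received enzalutamide, 23 genes are lower by the limma test and MYC and NOP10 are higher.

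Per kilobase of canonical transcript, the levels under R1881 spanned a wide range. NPM1 stood highest at 616 CPM per kb, followed by NOP10 at 239, NCL at 227, GNL3 at 137, FBL at 130.03 and NOP56 at 128. The last 3 are close together, and NOP10 is the highest H/ACA protein. NOC3L at 4.07 and PPAN at 0.552 CPM per kb were lowest. With enzalutamide NOP10 stood at 297 CPM per kb and NCL at 180.2 CPM per kb.

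The R1881 libraries 51 to 55 and 71 to 75 differed from each other, and the size of the difference varied with GC content. The change with enzalutamide was larger in size than the difference between series in 31 of 37 genes, the latter ranging from 0.01 to 0.32 in size on the log2 scale, and 29 genes were lower and 5 higher against both series. MYC, NCL and NOP10 were the genes whose series did not overlap. In the 13 genes with a GC content of at least 55%, the median series difference (71 to 75 minus 51 to 55) was 0.14 and the median coefficient of variation under R1881 was 11.7%, against -0.04 and 5.38% in the other 24 genes. Of the 13 GC-rich genes 8 were lower and 2 of these showed no overlap, compared with 15 and 12 of the other 24. Over all genes 32.7% were lower and 20.1% were lower without overlap. After correction of every library for its GC trend, a setting chosen after seeing the data, 25 genes were lower and 4 higher, while the shares of all genes also rose, to 39.3% lower and 33.2% higher. R1881 library 73 (replicate 6) held the highest value of BOP1 (44.4 CPM), MYC (127 CPM), MYBBP1A (99.7 CPM), NOC2L (166 CPM) and further genes. It was the lowest R1881 library in NCL (831 CPM), GNL3 (240 CPM), DDX21 (375 CPM) and further genes. Without library 73, 24 genes were lower and 3 higher. Since neither R1881 series holds enzalutamide libraries, series 81 to 85 and the treatment cannot be told apart.

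**Figure D4:**
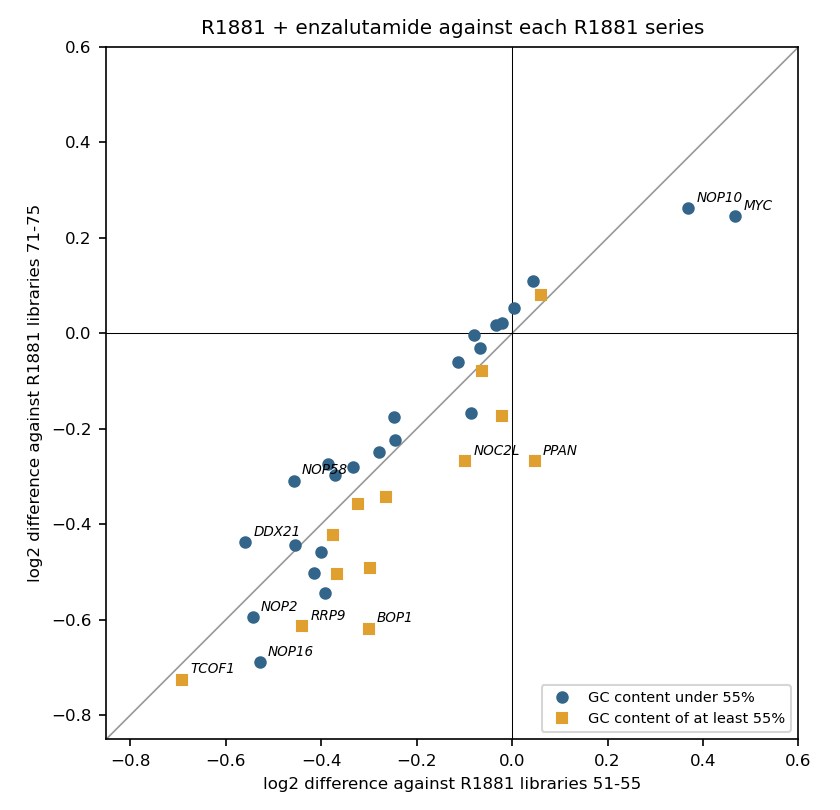
Log2 fold change of each gene against R1881 libraries 51 to 55 (x axis) and against libraries 71 to 75 (y axis), both over the same 5 enzalutamide libraries. Of the 37 genes 29 are below 0 on both axes and 5 are above 0 on both; the axes share their enzalutamide libraries.

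Promoters were examined because E-boxes are the sites to which MYC and MAX bind. RefSeq promoter windows (250 bases before to 50 after the start, GRCh38.p14) were given for 31 of the 37 genes, and not for MYC, BOP1, NOP58, RRP12, NOLC1 and TCOF1. The E-box CACGTG, searched on both strands where it reads the same, was present in 12 of these 31 promoters (38.7%), against 10.2% of 9825 other tested genes and 7.26% of all 35116 windows. In 11 of the 12 a CACGTG began between -15 and 40 relative to the start (position 1 is the first transcribed base), in EBNA1BP2 it lay at -237. The ETS-type motif CCGGAAGT was found in 6 (19.4%), against 8.92% of the other tested genes and 4.14% of all windows. The palindromic consensus androgen response element was found in none of the 31, and in 0 of the other tested genes and 0.00285% of all windows, which says only that its exact letters are absent from these windows. Of the 12 genes with CACGTG 9 were lower, NOP10 was higher and 2 did not pass, with a median of -0.36, and of the 19 without it 9 were lower and 10 did not pass, with a median of -0.13. For other genes the shares lower were 40.8% with CACGTG and 35.7% without. These counts are descriptive. The promoters printed here were chosen after their values were seen, since the rule fixed for printing promoters named none: NOP16 lacks CACGTG and TCOF1 had no window. They show the sites of genes that fell (RRP9, WDR43, IMP4), did not pass (FBL) and rose (NOP10). Each is given from 90 bases before to 30 bases after the start, 5′ to 3′ on the gene's own strand, with CACGTG in capitals. The windows are RRP9 at chr3:51941875-51941994 (minus strand), WDR43 at chr2:28894577-28894696 (plus), IMP4 at chr2:130342807-130342926 (plus), FBL at chr19:39846350-39846469 (minus) and NOP10 at chr15:34343107-34343226 (minus).
RRP9: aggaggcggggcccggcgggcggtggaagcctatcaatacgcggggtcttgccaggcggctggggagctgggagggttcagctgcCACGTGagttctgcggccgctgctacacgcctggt
WDR43: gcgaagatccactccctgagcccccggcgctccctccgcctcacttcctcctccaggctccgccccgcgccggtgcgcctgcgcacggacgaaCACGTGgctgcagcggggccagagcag
IMP4: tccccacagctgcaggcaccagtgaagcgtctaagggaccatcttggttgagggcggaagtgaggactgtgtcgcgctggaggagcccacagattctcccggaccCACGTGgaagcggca
FBL: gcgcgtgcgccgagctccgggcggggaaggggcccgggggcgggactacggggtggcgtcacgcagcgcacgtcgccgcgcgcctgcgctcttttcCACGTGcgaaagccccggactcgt
NOP10: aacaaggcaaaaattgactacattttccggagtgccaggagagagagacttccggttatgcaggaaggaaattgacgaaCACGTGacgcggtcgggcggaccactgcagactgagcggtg
The E-box begins at -5 in RRP9, 4 in WDR43, 16 in IMP4, 7 in FBL and -11 in NOP10. IMP4 and NOP10 carry another CACGTG further upstream, at -203 and -170.

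Of 17 genes that partner, antagonise, neighbour or regulate MYC, 6 were lower and 4 higher (5 and 4 with equal library totals), shares of 35.3% and 23.5% that lie near those of all genes, 32.7% and 29.8%. Of MYC's relatives, MYCL fell by 0.66 on the log2 scale, from 9.91 to 6.07 CPM, and MYCN had no row. MAX, the obligate partner, gave -0.10 (adjusted p = 0.0756, limma). Among the MXD repressors that compete for MAX, MXD1 (-0.33) and MXD3 (-0.80) were lower and MXI1 was higher at 0.84, from 47.1 ± 2.82 to 84.5 ± 3.18 CPM with no overlap, while MXD4 gave 0.02 and the related repressors MNT and MGA gave -0.18 (lower) and -0.02. In the parallel network of glucose-sensing factors MLX was lower at -0.56 and its partners MLXIP (0.51) and MLXIPL (0.95, from 0.740 to 1.86 CPM) were higher. MYCBP, a MYC-binding protein, was lower at -0.39 and PVT1, the long non-coding RNA next to MYC, was higher at 0.24. ZBTB17, through which MYC represses genes, gave -0.14, and the regulators of MYC protein turnover FBXW7, HUWE1 and USP28 gave 0.03, -0.07 and -0.05, none passing the test.

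Genes known as MYC targets outside ribosome biogenesis were lower in 16 of 18 cases and higher in none, with a median of -0.25, where 32.7% of all genes were lower. With equal library totals 14 were lower and 1 higher, and with edgeR 15 and 1. The largest changes were in ODC1, the first enzyme of polyamine synthesis, which fell from 1570.0 ± 85.7 to 389 ± 17.1 CPM (-2.01), and in LDHA, lactate dehydrogenase A, at -0.83. The other assembly factors were examined in lists, whose difference from the 36 factors was not tested. Of 53 further small subunit factors 36 were lower and 3 higher, with a median of -0.20, led downward by MPHOSPH10 (-0.80) and NOL6 (-0.50), with NOB1 (0.18) and DCAF13 (0.28) higher. Of 49 further large subunit factors 32 were lower and 3 higher, with a median of -0.23. PAK1IP1, a factor of early large subunit assembly, was far below the others, falling from 171 ± 6.57 to 22.6 ± 1.93 CPM (-2.90), followed by PUM3 (-0.61), while DDX18 (0.22) and GLTSCR2, also called NOP53 (0.36), were higher. Further RNA polymerase I factors were lower in 8 and higher in 1 of 14, with PHF6 (-0.78) and CD3EAP, the polymerase subunit POLR1G (-0.56), lower and POLR1D (0.57) higher. With equal library totals the counts of small subunit, large subunit and RNA polymerase I factors became 22 lower and 6 higher, 24 lower and 7 higher, and 6 lower and 4 higher, respectively. Fewer of all genes were lower and more were higher with equal totals than in the main fit, so the share of 32.7% does not apply to these counts.

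Of 79 cytosolic ribosomal protein genes, the components that the factors above assemble, 42 were higher, 1 was lower and 36 did not pass the test, where 29.8% of all genes were higher and 32.7% lower. Their median was 0.11, and their summed level overlapped between the treatments, at 58182 to 63496 CPM with R1881 and 63177 to 68090 CPM with enzalutamide. RPS3A (0.31, from 1201 ± 52.3 to 1487 ± 78.5 CPM) and RPS27 (0.27) were highest. RPS26 (-0.27) was lower, from 7.46 ± 0.815 to 6.12 ± 0.777 CPM, with overlapping groups. With equal library totals no ribosomal protein gene was lower. The count of higher genes was 32 against libraries 71 to 75, 56 against libraries 51 to 55 and 60 with equal library totals. Equal totals also called more of all genes higher and fewer lower than the main fit. Ribosomal protein genes have many processed copies in the genome, so their counts are uncertain.

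**Figure D5:**
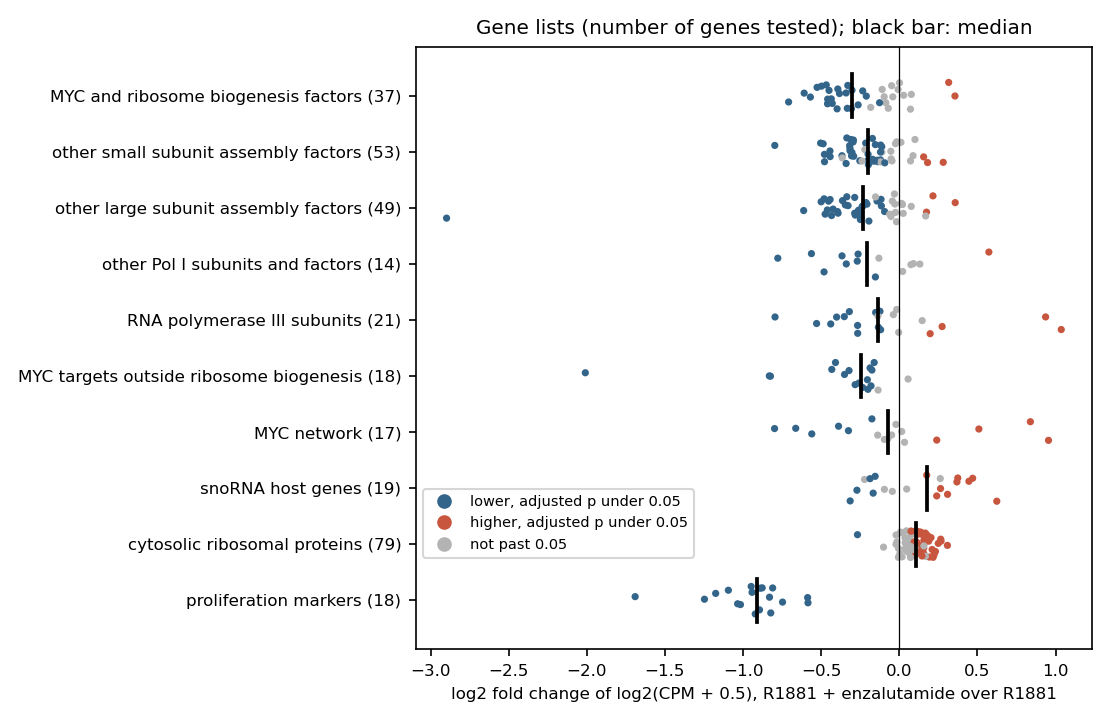
Log2 fold change of each gene (points, coloured by call) in the 37 genes and in 9 related lists, with the number tested in brackets and the median as a black bar. Medians are below 0 in the biogenesis lists and in the proliferation markers, and above 0 for snoRNA host genes and ribosomal proteins.

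Several of the 37 genes share exon sequence with another gene, which limits their counts. NOP2 shares 54.4% of its exon bases with an overlapping gene of the same strand, and PPAN shares 47.6% with the read-through gene PPAN-P2RY11. On the opposite strand, 28% of the exon bases of NHP2 lie in RMND5B, 20.7% of those of NOP14 in NOP14-AS1, 18.4% of those of NIP7 in COG8, 13.7% of those of EBNA1BP2 in CFAP57 and 12.3% of those of NOP16 in ARL10. The library kit kept strand, but the sources used here do not say whether the counting used it, so reads from these pairs may not have been separated.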

How the data were processed

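mRNA was sequenced from 15 libraries of LNCaP cells, 10 with R1881 and 5 with R1881 + enzalutamide, grouped by the sample labels; in the methods text the group sizes are swapped. Whether libraries came from separate cultures is not stated in the labels, though the methods call them biological replicates, so p-values measure the spread between libraries. Per the submitters' processing notes, reads were handled with bcl2fastq 2.17, STAR and featureCounts of Subread on GRCh38. For annotation, strand setting and scaling rule, the sources used here give nothing. The authors deposited a signal per gene and library (called CPM), which was used as deposited: columns summed to 1053406 to 1078567 for R1881 and 985580 to 1008992 for enzalutamide, and dividing by the worth of 1 read returned whole reads for 100% of values (tolerance 0.01). Same-treatment libraries differed beyond sampling noise in all 55 pairs (lowest chi-square over degrees of freedom 1.62).

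Differences were tested with limma 3.58.1 in R 4.3.3 (mean-variance trend, log2(CPM + 0.5), mean of at least 0.5, treatment only) with Benjamini-Hochberg adjustment over all 17046 genes and a threshold of 0.05; fold changes on this scale understate changes of low genes. Transcript lengths, GC content and overlaps came from GENCODE 44 on GRCh38, with GC content for 85% of the 17272 genes. edgeR 4.0.16 and DESeq2 1.42.0 on recovered reads were alternatives, together with the pseudocount (0.1 and 1), filters, scalings, each R1881 series alone, a replicate block and each library left out. The script for the limma test was checked on simulated reads. The 37 genes and all lists were chosen with earlier results of these data known. All 37 genes and the MYC network are named, and elsewhere the 2 lowest and 2 highest called genes of a list with a mean of at least 5. The number of libraries limits precision, as does counting error in genes with few reads.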

Additional observations from a re-analysis of the deposited data

Results flagged for a closer look

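Among the 37 genes, a library standing apart from the others of its group was sought in each of the treatments, 74 groups of values, of which chance would give about 3.7. Enzalutamide replicate 2 stood apart in 2 of them. It had the highest MYC level, 152 CPM (nearest 134 CPM), and the highest PES1 level, 66.4 CPM (nearest 58.6 CPM). These 2 genes were not isolated. The same library was the highest of its group in BOP1 (26.3 CPM), MYBBP1A (70.1 CPM), NOC2L (139 CPM) and further genes. In NCL (663 CPM), GNL3 (233 CPM), DDX21 (275 CPM) and further genes it was the lowest. MYC stayed higher when this library was left out. The cause was not tested.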

How the results depend on the processing

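Of the 37 genes, 28 kept their direction where called and their side of the threshold in every setting run, MYC and NOP10 among them, and no call reversed. With library totals set to 1000000, 5 genes were higher in place of 2, 1 was lower by at least 1.5-fold in place of 2, and the median log2 fold change was -0.21 in place of -0.30. The number of higher genes was 4 with median-ratio size factors, 4 with TMM factors, 4 with edgeR, 4 with DESeq2 and 4 with the GC trend removed. The number lower by at least 1.5-fold was 1 with edgeR, 1 against libraries 51 to 55 and 5 against libraries 71 to 75. Leaving out single libraries gave 22 to 25 genes lower, 2 to 3 higher, 1 to 4 lower by at least 1.5-fold (1 without R1881 replicate 6 or enzalutamide replicate 1, 4 without enzalutamide replicate 2) and a median of -0.31 to -0.27. The cause was not tested.

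With the replicate number as a block, 24 genes were lower, 2 were higher and the median was -0.30, NOC2L being gained. Libraries of the same replicate number did not deviate together (correlations of -0.07 to 0.07, 0 of 5 matching their own number best). The replicate numbers therefore do not pair the libraries. Pairing by the last digit of the label numbers was not tested. GAR1 lost its call with equal totals. FBL and DKC1 passed the threshold as lower under some settings, and WDR12, RRN3 and UBTF passed it as higher. WDR12 and UBTF were higher with equal totals, median-ratio size factors, TMM factors, edgeR, DESeq2 and the GC trend removed. Few reads limit chiefly PPAN, with a median of 24 in either treatment. PPAN also shares 47.6% of its exon bases with PPAN-P2RY11, and the part of this overlap in its low count was not tested. These settings bear on the processing only and not on the numbering of the libraries, which cannot be told apart from the treatment.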

Other observations

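RNA polymerase III transcribes 5S ribosomal RNA and transfer RNAs. Of its 21 subunits and factors 12 were lower and 4 higher, with a median of -0.13, where 32.7% of all genes were lower and 29.8% higher. With equal library totals 7 of the 21 were lower and 4 higher, a setting that also called fewer of all genes lower and more higher. POLR3E fell by 0.80 and POLR3K by 0.53 on the log2 scale. The alternative subunits POLR3G and POLR3GL both rose, POLR3G from 6.28 ± 0.787 to 13.4 ± 1.51 CPM (1.04) and POLR3GL from 6.07 ± 0.804 to 12.02 ± 1.11 CPM (0.94).

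Host genes of small nucleolar RNAs, whose introns carry the guides of ribosomal RNA modification, were higher in 9 and lower in 5 of 19. Their median was 0.18, and 29.8% of all genes were higher and 32.7% lower. With equal library totals 9 of the 19 were higher and 3 lower, but that setting also called more of all genes higher and fewer lower. SNHG3 (0.62) and C6orf48, also called SNHG32 (0.47), rose, and SNHG17 (-0.31) and SNHG15 (-0.27) fell. The small nucleolar RNAs themselves are not polyadenylated and were not measured here.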
